A study of Homo sapiens with 32 samples.

Results

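MECOM (MDS1 and EVI1 complex locus) encodes a zinc finger transcription factor of blood stem cells, and its overexpression is known from acute myeloid leukaemia (AML) with rearrangements of chromosome band 3q26. AML cell lines of high and of low MECOM level were set against each other here. Of 32 arrays in the series, each of a different human AML line, NOMO-1 and GF-D8 were left out because their arrays had a high background, KG-1 was averaged with KG-1A, and HL-60 with PLB-985, which left 28 units. The units were ranked by the level of one of the 5 probe sets for MECOM, and the top 8 units (MECOM-high) were compared with the bottom 14 (MECOM-low, 16 arrays), with the 6 between them left out. Levels are log2(signal + 16) throughout, where signal is the authors' linear intensity, and differences are MECOM-high minus MECOM-low on that scale, so the change of genes with low signal is understated.

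The MECOM-high lines were HNT-34, SET2, MOLM-16, HEL, FKH-1, F-36P, OCI-M1 and SKM-1. HEL, F-36P and OCI-M1 are erythroid and SET2 is megakaryoblastic, so 4 of the 8 are classed as of red cell or platelet lineage. The labels do not give this class, and it is taken from what is known of the lines; MOLM-16, which is not classed so, was as high in the markers of these lineages, as given with them. The MECOM-low units were PL-21, MOLM-13, ML-2, SHI-1, MO7E, THP-1, EOL-1, ME-1, KG-1/KG-1A, NB-4, HL-60/PLB-985, OCI-AML2, MV4-11 and OCI-AML5, of which only MO7E is megakaryoblastic and none is erythroid. In the middle were KMOE-2 and OCI-M2, both erythroid, and SH-2, OCI-AML3, KASUMI-1 and GDM-1. No line was treated. F-36P grew with IL-3 at 5 ng/ml, and OCI-AML2 and OCI-AML5 on the low side and OCI-AML3 in the middle grew with GM-CSF or SCF. No medium was given for MOLM-16, MOLM-13 and MV4-11. Each line is 1 array, so every p-value measures the spread between these lines, and 4 MECOM-high lines of erythroid or megakaryoblastic origin against 1 of 14 means that MECOM level and lineage are partly the same contrast.

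The EVI1 protein made from this locus binds DNA through separate zinc finger domains, one of which prefers a sequence that contains a GATA-type motif, and it recruits co-repressors such as CTBP1 and chromatin enzymes. In normal blood formation MECOM is high in stem cells and falls as cells mature. GATA1 and TAL1 drive red cell and platelet genes, KLF1 drives red cell genes, and CEBPA drives those of granulocytes. In AML, high MECOM is known for its link with rearrangements that place a GATA2 enhancer beside the gene.

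MECOM itself set the sides and is given as a description with no test. On the high side the ranking probe set read 12.77 in HNT-34, 10.51 in SET2, 10.32 in MOLM-16, 10.24 in HEL, 9.95 in FKH-1, 9.75 in F-36P, 8.57 in OCI-M1 and 7.70 in SKM-1. HNT-34 stood above the rest, while SET2, MOLM-16, HEL, FKH-1 and F-36P lay close together. On the low side the level ran from 4.16 in OCI-AML5 to 4.57 in PL-21, with a median of 4.39. No low unit exceeded 6.73, the median over the whole set of arrays (the array median below), so the order of the low units is an order of background signals. At the upper edge SKM-1, the last unit inside, read 7.70 and KMOE-2, the first outside, 6.91. At the lower edge PL-21 read 4.57 and GDM-1, just outside, 4.60, so which units fell in the middle was set by a difference of background size. The middle units SH-2, OCI-AML3, OCI-M2 and KASUMI-1 read 5.43, 4.68, 4.65 and 4.61.

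A second MECOM probe set that was not used for the ranking ran from 7.76 to 12.89 on the high side (median 10.23) and from 4.11 to 5.51 on the low side (median 4.56). It thus separated the same 8 high units from the same 14 low ones. A ranking by it would not have given the same low side, since KASUMI-1 (4.13) and GDM-1 (4.32) of the middle read below ME-1 (5.51) and OCI-AML5 (5.46). It was 7.01 in SH-2, a middle unit that the ranking probe set placed nearer to background. The other 3 probe sets of MECOM stayed below the array median on the low side, and on the high side exceeded it only in HNT-34, where a pair of them read 6.97 and 7.09.

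**Figure D1:**
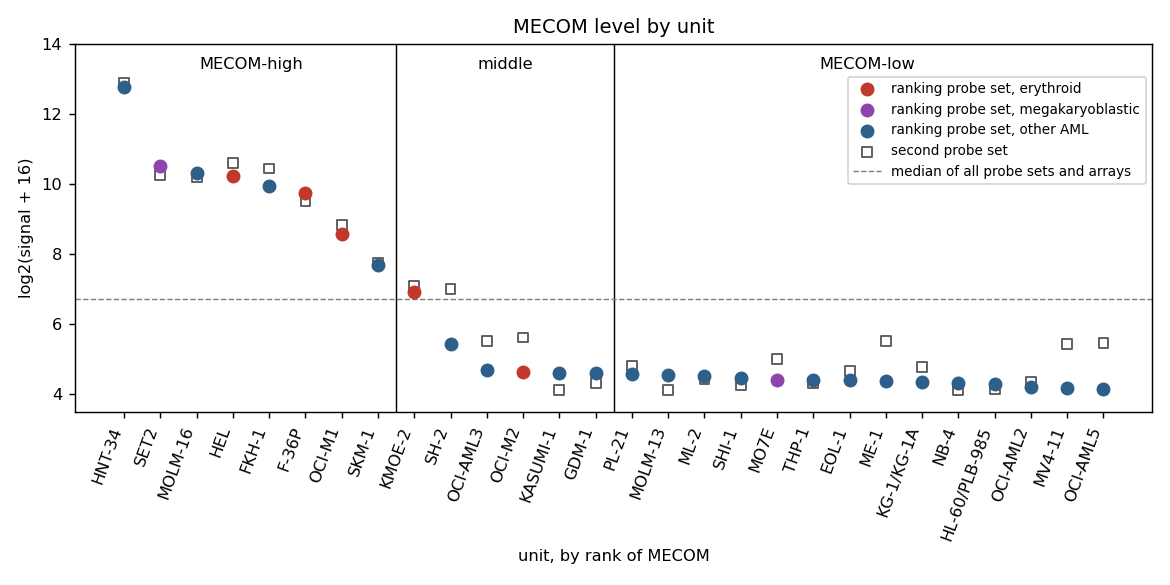
MECOM level, as log2(signal + 16), of the 28 units in order of the ranking probe set (filled circles, coloured by lineage), with a second MECOM probe set as open squares and the array median as a dashed line. The 8 MECOM-high units lie between 7.70 and 12.77 and the 14 MECOM-low units between 4.16 and 4.57, and 4 of the 8 high units are erythroid or megakaryoblastic.

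The stretch before the start of 3 genes on the high side, from the RefSeq promoter table (GRCh38.p14), is shown because each holds a GATA-type motif, the core shared by GATA factors and the first zinc finger domain of EVI1. Each is printed 5′ to 3′ on the gene's strand, covers 250 bases and ends at the base before the start, with the motif in capitals (AGATAA, or TTATCT where it lies on the other strand). ALDH1A1 lies at chr9:72953054-72953303, HBD at chr11:5234484-5234733 and EPOR at chr19:11384315-11384564, all on the minus strand. The first capital lies 34 bases before the start in ALDH1A1 and 78 bases before it in HBD and in EPOR.
ALDH1A1: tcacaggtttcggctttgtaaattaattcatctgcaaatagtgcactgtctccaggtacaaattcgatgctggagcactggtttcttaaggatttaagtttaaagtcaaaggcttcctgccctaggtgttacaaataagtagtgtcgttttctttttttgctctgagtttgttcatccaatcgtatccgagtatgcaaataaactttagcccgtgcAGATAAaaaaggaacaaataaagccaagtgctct
HBD: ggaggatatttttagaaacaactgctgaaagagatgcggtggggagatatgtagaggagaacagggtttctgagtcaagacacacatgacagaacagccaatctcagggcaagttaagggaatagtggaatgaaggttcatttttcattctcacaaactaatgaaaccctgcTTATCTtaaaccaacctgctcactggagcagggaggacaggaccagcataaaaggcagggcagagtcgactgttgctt
EPOR: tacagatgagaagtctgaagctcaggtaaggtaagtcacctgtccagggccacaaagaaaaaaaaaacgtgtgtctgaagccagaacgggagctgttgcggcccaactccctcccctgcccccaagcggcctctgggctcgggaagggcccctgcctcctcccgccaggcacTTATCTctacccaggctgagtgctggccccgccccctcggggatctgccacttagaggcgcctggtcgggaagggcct

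The motif search covered both strands of the 300-base window from 250 bases before to 50 after each gene's first listed start. AGATAA or TTATCT stood in 26 of the 234 promoters matched by symbol among the 286 genes called higher in MECOM-high units below (11.1%) and in 6 of the 130 matched among the 173 called lower (4.62%). Among all 11644 matched promoters of tested genes it stood in 5.94%, and among the 27305 promoters of the table in 10.5%. The longer motif of EVI1's first finger domain, ACAAGATAA, which contains AGATAA, was in 0 of the 234 and 0 of the 130, against 0.094% of tested genes and 0.201% of the table. The motif of the second finger domain, GAAGATGAG, was in 0 of the 234 and 1 of the 130, against 0.249% and 0.348%. A match says only that these letters are present.

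Across 14560 tested genes, limma with Benjamini-Hochberg adjustment called 286 genes higher in MECOM-high units (1.96%) and 173 lower (1.19%) at the 0.05 threshold, 459 in all (3.15%). Of the genes higher in MECOM-high lines ALDH1A1, a retinaldehyde dehydrogenase known as a marker of blood stem cells, had the largest difference and the smallest p, followed by HBBP1, a globin pseudogene, in difference and by NHSL3 and USP44 in p. Of those lower, the granule genes RNASE2, AZU1 and CTSG were among the 4 largest, with LAMP5. The median difference was 2.23 over the higher genes and fell by 1.92 over the lower, against a median of -0.01 over all tested genes, of which 48.8% had a positive difference. In no gene did the 8 high units lie wholly above or wholly below the 14 low units (0 of 14560 either way), so every difference below is between overlapping sides. In 30 of the 286 higher genes every low unit lay under the array median, and in 13 of the 173 lower genes every high unit did. Testing needed a level over that median in at least 3 units, so such genes entered through the other side or the middle. The share over all tested genes is not given, so both counts are a description only.

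The size of these differences varied among the high lines. Over the 286 higher genes, the median difference from the low units was 2.61 for the 4 erythroid or megakaryoblastic high lines and 1.49 for HNT-34, MOLM-16, FKH-1 and SKM-1. Over the 173 lower genes it was -2.29 and -1.24. All 459 genes had the same sign in both, but the genes were chosen on these same units, so that agreement is no separate result. Within the second group the lines differed. Over the higher genes the median was 2.41 in MOLM-16, against 0.82 in HNT-34, 1.19 in FKH-1 and 0.75 in SKM-1. With the erythroid and megakaryoblastic lines left out, 4 units against 13, limma called 3 genes higher (0.0206%) and 2 lower (0.0137%), with 1422 genes at an unadjusted p under 0.05 (9.77%). With lineage as a covariate it called 5 higher (0.0343%) and 1 lower (0.00687%), with 1288 genes at an unadjusted p under 0.05 (8.85%).

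The arrays differed in RNA quality as well. A GAPDH 3′/5′ signal ratio above 2, which rises as RNA degrades, was found in 0 of 8 high and 5 of 14 low units, including the average of HL-60 with PLB-985. Without those arrays 31 genes were called higher (0.213%) and 13 lower (0.0893%), 44 in all, each of them among the 459. All 459 kept their sign, with a median difference of 2.14 against 2.23 over the higher genes and -1.77 against -1.92 over the lower. The genes were chosen on units that this fit mostly keeps, so that agreement is no separate result. Without F-36P and the other lines grown with an added cytokine the count was 87.

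ALDH1A1 showed the largest and the best supported difference. Its level was 6.58 in SKM-1, the lowest high unit, with a median of 10.83 and a highest value of 13.27 in SET2; on the low side it was 4.25 at the lowest, 4.68 at the median and 7.30 in PL-21, the highest. All high units but SKM-1 lay above every low unit. The difference was 5.44 ± 0.64 (SE, 43.3-fold, limma adjusted p = 0.000231). Among the 4 high lines of other origin, HNT-34 read 12.10, MOLM-16 10.89, FKH-1 8.51 and SKM-1 6.58, and without erythroid and megakaryoblastic lines the difference was 4.46 ± 0.76 (limma adjusted p = 0.0439). With MOLM-16 also left out it was 4.01 ± 0.84 and no longer passed (limma adjusted p = 0.0868). ALDH1A1 was also high in middle units with MECOM at background, at 10.85 in OCI-M2 and 9.06 in GDM-1.

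NHSL3, an NHS family gene, ran from 8.33 to 10.42 on the high side (median 9.55) and from 4.83 to 8.67 on the low side (median 5.50). Its high units were close to one another, and 6 of the 8 lay above every low unit. The difference was 3.45 ± 0.43 (11.0-fold, limma adjusted p = 0.000251), and 3.40 ± 0.58 without erythroid and megakaryoblastic lines (limma adjusted p = 0.0439). HNT-34, MOLM-16, FKH-1 and SKM-1 read 9.64, 10.04, 8.93 and 8.33. Without MOLM-16 as well, the value was 3.13 ± 0.65 (limma adjusted p = 0.0868). ZNF677, a KRAB zinc finger gene, read 10.28, 10.18, 10.06 and 8.59 in the same 4 lines and 4.99 in HEL, the lowest of the 8. On the low side it ran from 4.07 to 8.88 (median 4.84), with MO7E highest, and the difference was 4.06 ± 0.78 (limma adjusted p = 0.00835) and 4.40 ± 0.75 without the erythroid and megakaryoblastic lines (limma adjusted p = 0.0439). It did not pass without MOLM-16 as well (4.26 ± 0.86, limma adjusted p = 0.0868) or with lineage as a covariate (3.64 ± 0.90, limma adjusted p = 0.142). In the middle units NHSL3 read 9.45 in OCI-M2, 9.32 in GDM-1, 8.81 in SH-2, 7.71 in KMOE-2, 6.67 in OCI-AML3 and 5.29 in KASUMI-1. ZNF677 read 11.11 in OCI-M2, 10.36 in SH-2, 10.05 in KMOE-2, 6.40 in GDM-1, 6.21 in OCI-AML3 and 5.15 in KASUMI-1. Both genes were thus also high in OCI-M2, where MECOM was at background.

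SLC22A16, a carnitine transporter gene, was the lower gene that passed both comparisons. It ran from 4.45 in HEL to 9.02 in FKH-1 on the high side (median 5.40) and from 5.38 in MO7E to 11.87 in PL-21 on the low side (median 10.57). MO7E, the megakaryoblastic low line, read like the high side, and FKH-1 like the low side. The difference was -4.45 ± 0.68 (limma adjusted p = 0.00273) and -4.65 ± 0.65 without erythroid and megakaryoblastic lines (limma adjusted p = 0.0154). It still passed without MOLM-16 as well (-4.21 ± 0.71, limma adjusted p = 0.028) but not with lineage as a covariate (-3.62 ± 0.72, limma adjusted p = 0.0659). IRAG2, an endoplasmic reticulum membrane protein gene of lymphoid cells, passed only without those lines, at -1.47 ± 0.24 (limma adjusted p = 0.0439), with 10.09 in HNT-34, 10.37 in MOLM-16, 9.39 in FKH-1 and 8.94 in SKM-1. It was not called over all 22 units (-0.94 ± 0.31, limma adjusted p = 0.0994); a difference between the comparisons was not tested.

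With lineage as a covariate, ALDH1A1, NHSL3, USP44, KCNK1 and SH3BGRL2 were called higher and CCDC26 lower. Their differences in that fit were 4.59 ± 0.66, 3.26 ± 0.49, 2.72 ± 0.43, 3.93 ± 0.71, 2.55 ± 0.47 and -2.85 ± 0.51. In the same order, the limma adjusted p-values were 0.00779, 0.00859, 0.0108, 0.0403, 0.0431 and 0.0401. The differences and p-values that follow are those of the main comparison, without the covariate. USP44, a deubiquitinase gene, ran from 6.42 to 10.38 on the high side (median 9.45) and from 4.81 to 7.32 on the low side (median 5.54), and its difference was 3.27 ± 0.42 (limma adjusted p = 0.0003). KCNK1, a two-pore potassium channel gene, ran from 4.83 in HNT-34 to 11.83 in MOLM-16 (median 9.42), against 4.25 to 6.56 (median 4.79) on the low side, a difference of 4.14 ± 0.61 (limma adjusted p = 0.00182). HNT-34, the line with the most MECOM, was the only high unit without a KCNK1 level above all low units. CCDC26, a long noncoding RNA gene, fell by 2.56 ± 0.44 (limma adjusted p = 0.00435), from a low-side median of 10.13 to a high-side median of 7.02.

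**Figure D2:**
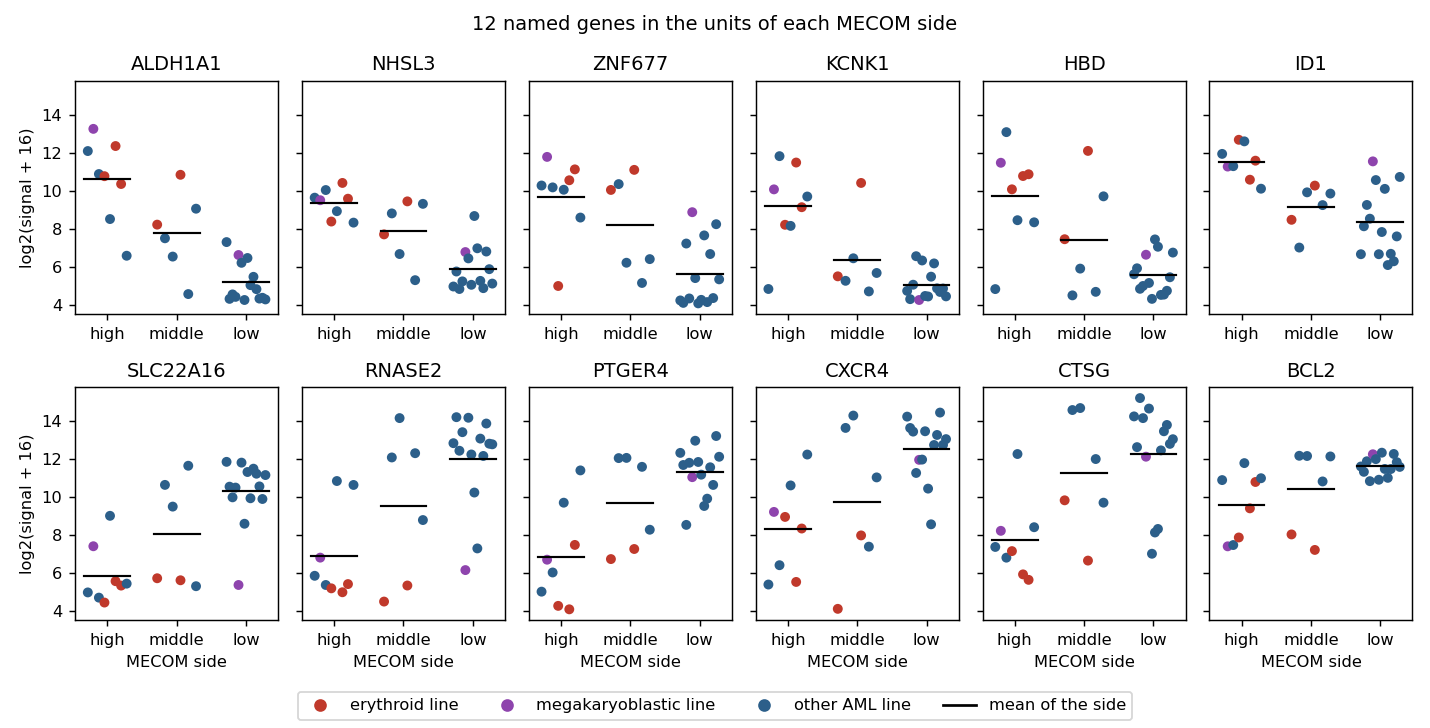
Levels of 12 named genes, as log2(signal + 16), in the high, middle and low units, each point a unit coloured by lineage and each bar the mean of a side. NHSL3 is high in MECOM-high units of each colour, and so is ALDH1A1 except in SKM-1 (6.58), which lies below PL-21 (7.30) of the low side. HBD is at 10.08 to 13.10 in the erythroid and megakaryoblastic high lines and MOLM-16, and at 12.11 in OCI-M2 of the middle. It is at most 8.45 in the other high units.

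Other genes with the largest higher values included PLOD2 (collagen lysyl hydroxylase, 4.43 ± 0.96), DNAJC6 (auxilin, 4.36 ± 0.81), STON2 (an endocytic adaptor, 4.22 ± 0.81), MYH10 (non-muscle myosin heavy chain, 4.19 ± 0.73) and ISYNA1 (inositol phosphate synthase, 4.18 ± 0.80). ZNF711, TCEAL4, TANC1, HEPH (hephaestin, a ferroxidase) and PRTFDC1 rose by 3.89 to 4.37. The overlap differed among them. ISYNA1 was above every low unit in 7 of 8 high units, with a high-side median of 10.71 and a lowest value of 4.32 in SKM-1. PLOD2 was above every low unit in only 2 of 8, since OCI-AML5 read 11.44. TCEAL4 was uniformly high on the high side (10.87 to 12.87) but ran from 4.35 to 12.40 on the low side, and it lost its call without SET2 (limma adjusted p = 0.053).

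The red cell list had the highest share of called genes. Of its 19 tested members 11 rose and none fell, against 1.96% and 1.19% of all tested genes. All 19 differences were positive, against 48.8% of all tested genes, with a median of 2.45 against -0.01. The erythroid transcription factor genes GATA1 (2.69 ± 0.72), KLF1 (3.60 ± 0.92) and TAL1 (3.70 ± 1.02) were among those that rose, as were NFE2 (2.02 ± 0.48) and the erythropoietin receptor EPOR (1.16 ± 0.29). NFE2 lost its call without SET2, MOLM-16, HEL or OCI-M1 (limma adjusted p up to 0.0638) and EPOR without SET2, MOLM-16, F-36P or OCI-M1 (up to 0.0763). GATA1, KLF1 and TAL1 lost theirs without any one of 16, 8 and 18 units (up to 0.0969, 0.0881 and 0.109). Without erythroid and megakaryoblastic lines none of the 19 was called and the median was 0.99.

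HBD, the delta globin gene, ran from 4.82 in HNT-34 to 13.10 in MOLM-16 (median 10.43) on the high side, against 4.31 to 7.44 (median 5.30) on the low side. SET2, OCI-M1, F-36P and HEL read 11.48, 10.88, 10.78 and 10.08, while FKH-1 and SKM-1 read 8.45 and 8.34. The difference was 4.18 ± 0.71 (18.1-fold, limma adjusted p = 0.00435). HBBP1, a globin pseudogene, rose by 5.07 ± 0.87 (limma adjusted p = 0.00435), HBB, beta globin, by 2.62 ± 0.54 (limma adjusted p = 0.0125), HBE1, epsilon globin, by 3.0 ± 0.75 (limma adjusted p = 0.0302) and HBZ, zeta globin, by 3.38 ± 0.86 (limma adjusted p = 0.0339). HBE1 and HBZ lost their calls without any one of 4 and 7 units (up to 0.0763 and 0.0892). These genes have near-identical stretches, so signal could be shared between their probe sets. CA1, carbonic anhydrase, and EPB42, a red cell membrane protein, also rose (3.42 ± 0.90 and 2.45 ± 0.68), but lost their calls without any one of 16 and 18 units (up to 0.102 and 0.125). Without erythroid and megakaryoblastic lines and MOLM-16, HBZ and CA1 read -0.21 ± 0.35 and -0.21 ± 0.29. The haem synthesis enzyme ALAS2 (0.92 ± 0.31) and the haemoglobin stabilizer AHSP (1.13 ± 0.44) did not pass.

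The score of the red cell list, each member centred on its mean over the units and the members then averaged, was 1.94 to 3.29 in the 4 erythroid or megakaryoblastic high lines. It was 2.44 in MOLM-16, and the other 3 high lines ran down to -1.21 in SKM-1. On the low side it ran from -1.34 to 0.69, highest in MO7E. MOLM-16 therefore read like the erythroid lines on this list although it is not classed with them.

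Of 18 tested genes of the platelet list, TUBB1, the platelet beta tubulin (2.42 ± 0.56, limma adjusted p = 0.0203), and NFE2, which the red cell list also holds, rose. The share over all tested genes was 1.96%, and the median of the list was 1.00. TUBB1 lost its call without SET2 or HEL (limma adjusted p up to 0.0595). ITGA2B, the platelet integrin chain, had a high-side median of 12.52 and a low-side median of 8.04, but MO7E read 13.90 and the difference of 3.17 ± 1.11 did not pass (limma adjusted p = 0.119). As a marker of lineage ITGA2B read 12.48 to 13.45 in the 4 erythroid or megakaryoblastic high lines, but MOLM-16 read 13.93, and ME-1 on the low side (12.65) and GDM-1 in the middle (12.58) were within that range too. GP6, the platelet collagen receptor, was at 1.23 ± 0.43 (limma adjusted p = 0.118).

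Granule genes of neutrophils and eosinophils went the other way. Of 16 tested, 5 fell, against 1.19% of all tested genes, and none rose, with 14 of 16 differences negative and a median of -2.19. Without erythroid and megakaryoblastic lines the median was -2.10 and none of the 16 was called. RNASE2, the eosinophil-derived neurotoxin, ran from 5.00 to 10.86 on the high side (median 5.64) and from 6.16 to 14.22 on the low side (median 12.81), with 5 high units below every low unit. FKH-1 and SKM-1 were the high units that still read 10.86 and 10.65, and MO7E was the lowest low unit. The difference was -5.09 ± 1.01 (limma adjusted p = 0.00986). RNASE2CP, a near copy of RNASE2 whose probe set may share its signal, fell by 3.79 ± 0.77.

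CTSG, cathepsin G, ran from 5.65 to 12.28 on the high side (median 7.27) and from 7.02 to 15.23 on the low side (median 12.94), a difference of -4.57 ± 1.00 (limma adjusted p = 0.0163). AZU1, azurocidin, fell by 4.96 ± 1.30 (limma adjusted p = 0.038), although SKM-1 read 13.61 and KG-1/KG-1A on the low side 5.74. The repressor gene GFI1 (-2.29 ± 0.63) and the G-CSF receptor CSF3R (-2.27 ± 0.63) fell with adjusted p-values of 0.0473 and 0.0486 by limma. AZU1, GFI1 and CSF3R lost their calls when any one of 16, 17 and 17 units was left out (adjusted p up to 0.0875, 0.106 and 0.109). MPO, ELANE and PRTN3, the other main granule enzymes, had differences of -4.11 ± 1.41, -3.32 ± 1.71 and -4.29 ± 1.47 and did not pass (limma adjusted p = 0.108, 0.302 and 0.109).

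No monocyte gene of 18 tested was called, and the median was -0.64. IRF8, a transcription factor of monocytes and dendritic cells, had medians of 7.31 and 12.30 (-3.11 ± 0.92, limma adjusted p = 0.0646), and the endotoxin co-receptor CD14 of 4.48 and 6.15 (-1.27 ± 0.38, limma adjusted p = 0.0694). ITGAM lay in the opposite direction at 1.92 ± 0.57 (limma adjusted p = 0.0645). Among the largest lower differences were several receptors of myeloid cells. PTGER4, a prostaglandin E2 receptor, ran from 4.10 to 11.42 on the high side (median 6.37) against 8.55 to 13.23 (median 11.64), a difference of -4.48 ± 0.77 (limma adjusted p = 0.00435). CXCR4, the receptor that holds blood stem cells and leukaemia cells in the marrow, had medians of 8.66 and 12.91 and a difference of -4.18 ± 0.80 (limma adjusted p = 0.0082). SKM-1 was the highest high unit in both, at 11.42 and 12.25.

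GPR183 (-3.82 ± 0.79), an oxysterol receptor, and the chemokine gene CCL5 (-3.69 ± 0.67) each had 7 of 8 high units below every low unit. CCR2, SORL1, KBTBD11, CRYBG1 and LINC00926 fell by 3.70 to 4.15. LAMP5, a lysosome-associated membrane protein gene, was at background in every high unit (4.31 to 5.34) and ran from 4.37 to 13.94 on the low side, where SHI-1, MO7E, ME-1, KG-1/KG-1A and NB-4 were also near background. It fell by 4.92 ± 1.33 (limma adjusted p = 0.0439) and lost its call without any one of 15 units (adjusted p up to 0.0864). CCR2 did so without any one of 11 units (up to 0.075) and CRYBG1 of 10 (up to 0.0701).

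Stem and progenitor genes had 22 of 24 differences positive, against 48.8% of all tested genes. Their median was 1.09, and 1.77 without erythroid and megakaryoblastic lines. Only ARHGAP22 rose (3.57 ± 0.89, limma adjusted p = 0.0293), against 1.96% of all tested genes, and it lost its call without SET2, HEL or F-36P (up to 0.0556). KIT, the stem cell factor receptor, had medians of 11.88 and 7.28 (2.74 ± 1.13, limma adjusted p = 0.185), and CD34 of 8.77 and 6.19 (1.76 ± 1.01, limma adjusted p = 0.364). ADGRG1, a stem cell receptor also known as GPR56 and linked with EVI1, had medians of 10.01 and 4.87, but MO7E read 12.85 and the difference of 3.06 ± 1.01 did not pass (limma adjusted p = 0.0958). Of 9 tested HOXB genes 8 had positive differences (median 1.83), against 48.8% of all tested genes. HOXB2 rose by 3.68 ± 0.96 (limma adjusted p = 0.0364), with SKM-1 apart from the other high units at 6.07. HOXB2 lost its call without any one of 16 units (up to 0.0761). Only 3 of 13 genes in the HOXA and cofactor list were tested and none was called.

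**Figure D3:**
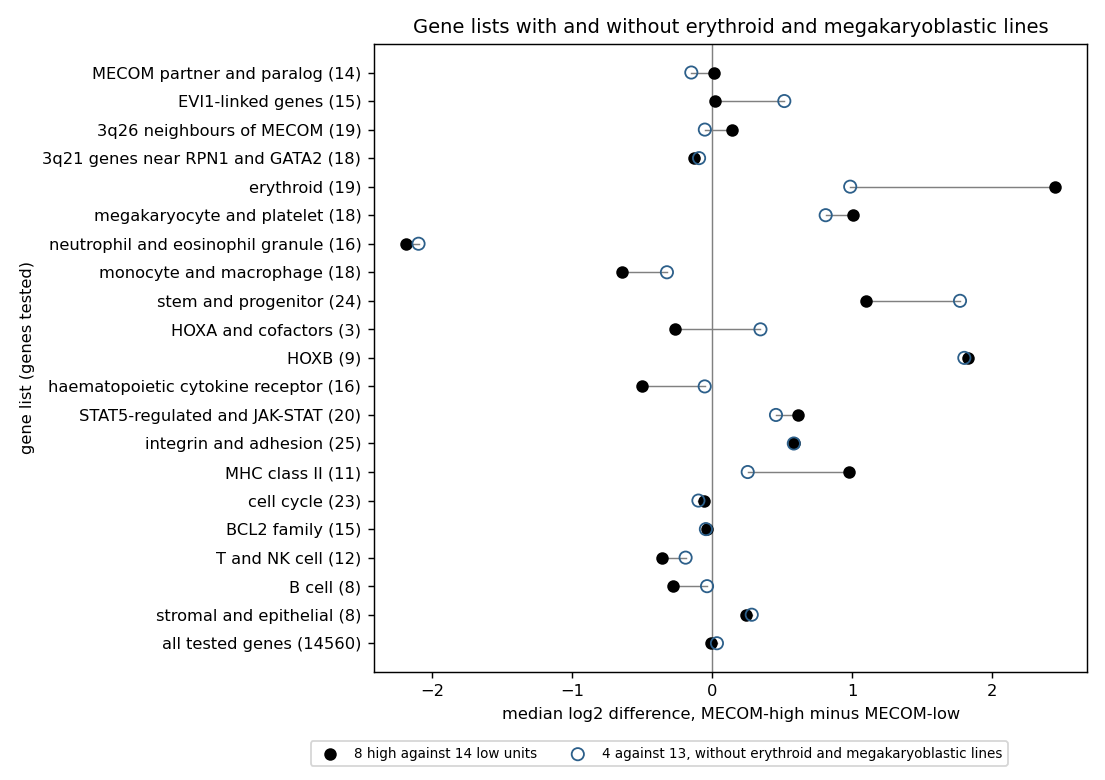
Median log2 difference, MECOM-high minus MECOM-low, of each gene list over 8 against 14 units (filled) and over 4 against 13 without erythroid and megakaryoblastic lines (open), with the number of tested genes in brackets. The red cell list moves from 2.45 to 0.99, while the granule list stays at -2.19 and -2.10 and the HOXB list at 1.83 and 1.80.

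Among 14 tested partners and paralogs of MECOM, MBD3, a subunit of the NuRD repressor complex, fell by 1.05 ± 0.27 (limma adjusted p = 0.0376, lost without any one of 12 units, up to 0.0849), and none rose. Without arrays of a GAPDH ratio above 2 the MBD3 difference was smaller and did not pass (-0.63 ± 0.22, limma adjusted p = 0.207). The same held with that ratio as a covariate (-0.65 ± 0.21, limma adjusted p = 0.134). CTBP1, the co-repressor, was at -0.49 ± 0.19 (limma adjusted p = 0.157), DNMT3B, a DNA methyltransferase, at 1.84 ± 0.60 (limma adjusted p = 0.0925), and PRDM16, the close paralog, at 0.66 ± 0.37 (limma adjusted p = 0.349). Of 15 tested genes linked with EVI1 in earlier work, BCL2L1 and ESAM rose and FOS fell. The shares over all tested genes, for this list and for the partners, were 1.96% higher and 1.19% lower. FOS, an AP-1 subunit, had medians of 4.54 and 9.24 (-3.61 ± 0.74, limma adjusted p = 0.0121), with 6 high units below every low unit. ESAM, an endothelial and stem cell adhesion molecule, had medians of 9.37 and 5.18 (3.34 ± 0.83, limma adjusted p = 0.0297), and lost its call without SET2, HEL or F-36P (up to 0.074).

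Genes near MECOM on 3q26 were not called. Of 19 tested none passed, with a median difference of 0.14, and none of the 20 nearest tested genes did either. The smallest p among them was that of SEC62, a protein translocation gene, at -0.65 ± 0.21 (limma adjusted p = 0.0924). On 3q21, GATA2 had medians of 12.04 and 9.92 and a difference of 1.41 ± 0.55 (limma adjusted p = 0.162), and RPN1 one of -0.47 ± 0.22 (limma adjusted p = 0.248). Without SKM-1, where GATA2 was at its lowest on the high side (8.99), its difference was 1.77 ± 0.52 (limma adjusted p = 0.0487). Leaving out SKM-1 moved the count over all tested genes from 459 to 811, so this pass is not particular to GATA2.

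Among cytokine receptors, CSF2RB, the shared chain of the GM-CSF, IL-3 and IL-5 receptors, rose by 2.14 ± 0.58 (limma adjusted p = 0.0439, lost without any one of 16 units, up to 0.102) along with EPOR, while CSF3R and CXCR4 fell, of 16 tested. Of 20 STAT5-regulated and JAK-STAT genes, BCL2L1 and ID1 rose. For these lists and the BCL2 family below, the shares over all tested genes were 1.96% higher and 1.19% lower. ID1, an inhibitor of helix-loop-helix factors, had medians of 11.45 and 7.98 (3.18 ± 0.65, limma adjusted p = 0.0121). BCL2L1, which encodes BCL-XL, rose by 1.34 ± 0.34 (limma adjusted p = 0.0323), and BCL2 fell by 2.05 ± 0.47 (limma adjusted p = 0.0194). BCL2 ran from 7.42 to 11.80 on the high side (median 10.11) and from 10.85 to 12.35 on the low side (median 11.61), so the low side was the more uniform. BCL2L1 lost its call without any one of 6 units (up to 0.0792) and BCL2 without SET2 or HEL (up to 0.0531). The other 13 tested genes of the BCL2 family were not called.

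The PIM kinases, targets of the inhibitors for which the series was made, did not pass. PIM1 ran from 8.13 in SKM-1 to 13.94 in MOLM-16 (median 12.77), against 7.79 to 13.15 (median 9.16) on the low side, a difference of 2.09 ± 0.84 (limma adjusted p = 0.172). Without SKM-1 it was 2.69 ± 0.78 (limma adjusted p = 0.0436). PIM2 was at 1.02 ± 0.31 (limma adjusted p = 0.0694), 1.28 ± 0.26 without SKM-1 (limma adjusted p = 0.00657), and PIM3 at -0.50 ± 0.24 (limma adjusted p = 0.257). As given for GATA2, the count over all tested genes also rose without SKM-1, from 459 to 811. Of 25 integrin and adhesion genes ITGB1 (1.02 ± 0.27) and ESAM rose and ITGAL (-3.28 ± 0.77) fell, against 1.96% and 1.19% of all tested genes. Whether any list departs from these shares was not tested. ITGB1 lost its call without any 1 of 15 units (limma adjusted p up to 0.0963) and ITGAL without HEL or F-36P (up to 0.056). No gene was called among 11 of MHC class II, 23 of the cell cycle, 12 of T and NK cells, 8 of B cells and 8 of stromal and epithelial cells.

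As a description over all 28 units, the genes whose level followed MECOM most closely were USP44 (Pearson r = 0.87), ALDH1A1 (0.82), ADAMTS14 (0.75), MIR3945HG (0.75), LOC100506405 (0.73) and NHSL3 (0.72). The lowest r values were those of PTGER4 (-0.77), PM20D2 (-0.75) and LY9 (-0.72). Most units have MECOM at background, so these values largely restate the gap between the sides.

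**Figure D4:**
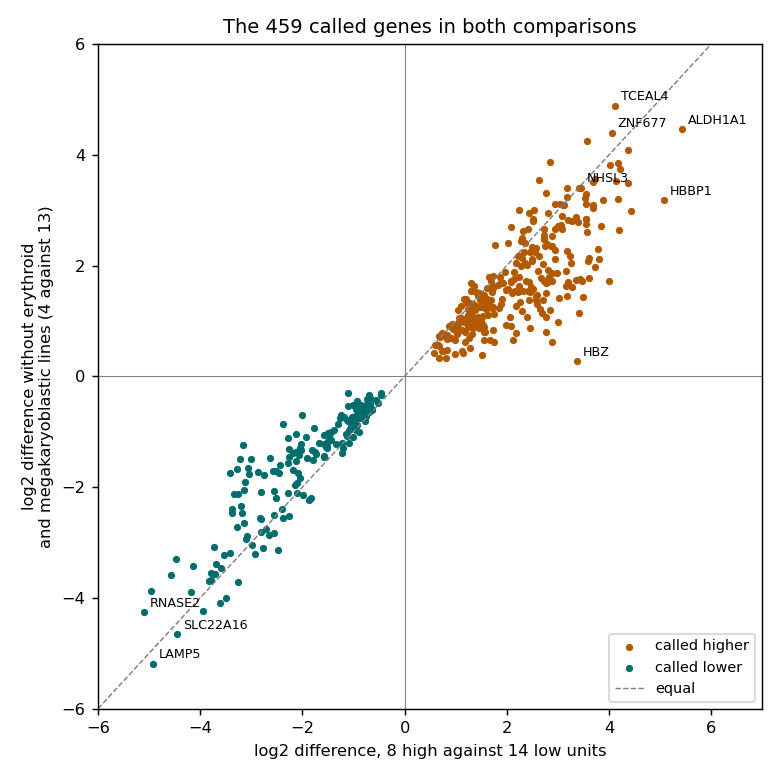
Log2 difference of the 459 called genes over 8 against 14 units (horizontal) and without erythroid and megakaryoblastic lines, 4 against 13 (vertical), with a dashed line of equality. All 459 keep their sign in these overlapping comparisons; HBZ moves from 3.38 to 0.28, and TCEAL4, ZNF677 and LAMP5 lie at or beyond the line.

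The 6 middle units took no part in the fit, and the called genes can be read in them directly. OCI-M2, an erythroid line with MECOM at 4.65, was nearer to the MECOM-high than to the MECOM-low mean in 75.2% of the 286 higher genes and 87.3% of the 173 lower ones. KMOE-2, erythroid with MECOM at 6.91, was nearer to the high mean in 55.6% and 71.7%. The middle units of other origin, SH-2, OCI-AML3, KASUMI-1 and GDM-1, were nearer in 22% to 36% of the higher genes and 17.3% to 38.7% of the lower ones. Of the middle units OCI-M2 was thus the nearest to the high side, and KMOE-2, with more MECOM, came next. Each is 1 array, and whether lineage or MECOM lies behind this was not tested.

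Within the sides the same order appeared, as a description, since these units chose the genes. SET2, F-36P, OCI-M1, HEL and MOLM-16 were nearer to the high mean in 87.8% to 97.9% of the higher genes, against 63.6% in FKH-1, 53.8% in HNT-34 and 45.1% in SKM-1. HNT-34 had the highest MECOM of all. MO7E, the megakaryoblastic low line, was nearer to the high mean in 47.2% of the higher and 61.3% of the lower genes. How much of the contrast belongs to MECOM and how much to lineage cannot be fully told apart, with 4 such lines on the high side and 1 on the low.

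**Figure D5:**
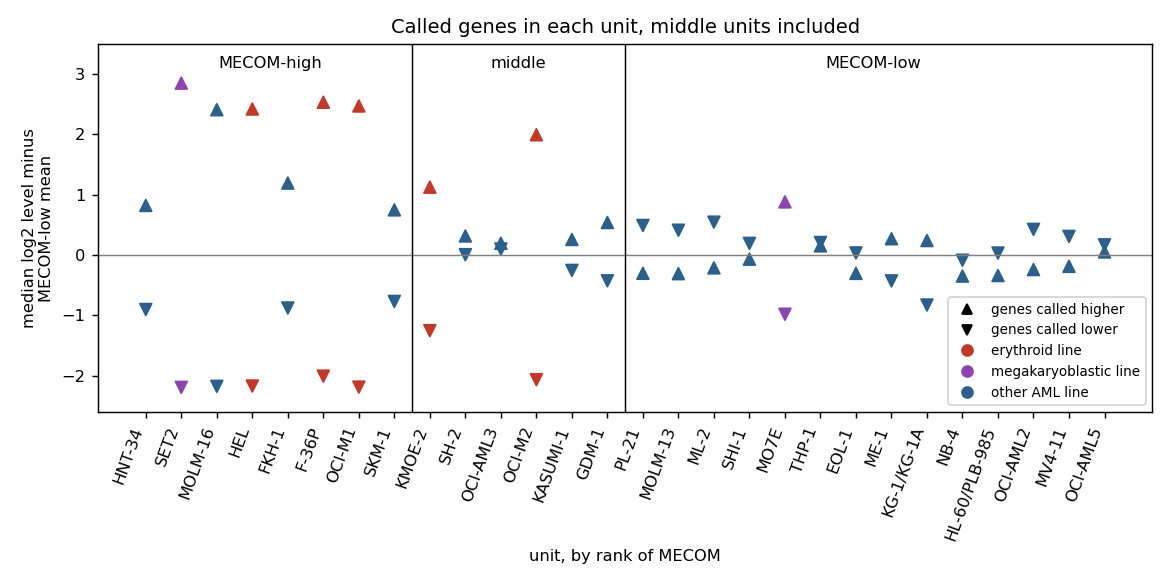
Median over the 286 genes called higher (upward triangles) and the 173 called lower (downward triangles) of the level minus the MECOM-low mean, in each of the 28 units in order of MECOM, coloured by lineage. OCI-M2, with MECOM at background, sits at 1.995 and -2.07 beside the erythroid MECOM-high lines, while HNT-34, with the most MECOM, sits at 0.82 and -0.90.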

How the data were processed

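Each of 32 human AML cell lines was hybridised once to an Affymetrix array of 54675 probe sets. The authors deposited linear intensity from Expression Console, per the submitters' processing notes; its version and summarization method are not given in the sources used here. With the outer 2% of values trimmed, array means were 500.05 to 500.07, so no scaling was added to log2(signal + 16). Depth has no meaning here; the number of arrays limits the precision.

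Probe sets with 1 gene symbol (41091; 1801 had several, 11721 were not listed) gave 19775 genes, 1 probe set each, that of the highest mean over 32 arrays. Testing was limited to the 14560 genes with a level over the array median (6.73) in at least 3 of 28 units. MECOM was not tested. The sides were compared with limma 3.58.1 in R 4.3.3 (lmFit, eBayes with trend, two-sided, Benjamini-Hochberg over all tested genes), after a check on simulated data. Errors after ± are standard errors.

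The lines on each side, the gene lists and the tests were chosen with earlier results of these data known. The text names the 15 called genes of largest difference each way, up to 10 each way called with and without erythroid and megakaryoblastic lines, the 4 members of each list with the smallest p, the PIM genes, and the 6 highest and 3 lowest correlations with MECOM; other members of the lists, and genes called only under another model, were named after their values were seen. Alternatives changed the pseudocount, filter, scaling, probe set choice, sides, lineage, RNA quality, growth factor and variance trend, and left out each unit. Promoters came from RefSeq (GRCh38.p14).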

Additional observations from a re-analysis of the deposited data

Results flagged for a closer look

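Among 124 named genes, 17 had a unit that stood apart from the rest of the 8 MECOM-high units by Dixon's test. Chance gives about 1 in 20 groups for independent genes. Most of these genes were named for their values in these same units, and genes can vary together. The count is therefore a description, and an excess over chance was not tested. SKM-1, the high unit with the least MECOM, was that unit in 13. It was the lowest for STON2 (5.48), ISYNA1 (4.32), HOXB2 (6.07), ITGB1 (12.17), PIM1 (8.13), USP44 (6.42) and TAL1 (5.66), and the highest for KBTBD11 (10.95), CRYBG1 (10.75), CCL5 (10.65), TLR2 (10.32), MPO (14.53) and PRTN3 (14.33). In these genes SKM-1 thus lay apart from the high units in the direction of the low side. FKH-1 was the highest for CTSG (12.28) and HOXB8 (11.49), HNT-34 the lowest for ZNF711 (5.46), and HEL the lowest for ZNF677 (4.99).

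MECOM signal was also seen outside the compared sides, above the highest MECOM-low value of 4.57. It was 6.91 in KMOE-2 and 5.43 in SH-2, both middle units, and 6.86 in GF-D8, which was left out and whose array median was 8.02, so its MECOM lay below the middle of its own array.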

How the results depend on the processing

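The main count of 459 genes was 5 without erythroid and megakaryoblastic lines, 6 with lineage as a covariate and 12 without those lines and MOLM-16. It was 44 without arrays of a GAPDH ratio above 2, 119 with that ratio as a covariate, 87 without the lines grown with an added cytokine (3 of the 22 units), 167 for the top 8 against all other 20 units, and 200 for a slope on MECOM over 28 units. Both covariate settings kept all 22 units; the cause of each lower count was not tested. It was 363 to 584 under the others (pseudocounts 1 and 64, no filter, quantile normalization, median centring, mean of probe sets, KG-1 and HL-60 alone, top 6 units, no variance trend). Leaving out each of the 22 units in turn gave 187 (without SET2) to 811 (without SKM-1); the count moved by over 1.5 times without MOLM-16 (300), HEL (236), F-36P (230), OCI-M1 (259), MOLM-13 (289), ML-2 (305), MO7E (764) and OCI-AML2 (296) as well. Of 63 called genes named in the text or by its rule, 37 kept their call whichever unit was left out and 0 under all 17 other settings. HBZ (-0.21) and CA1 (-0.21) changed sign without erythroid and megakaryoblastic lines and MOLM-16, and no other called gene named did under any setting. Keeping NOMO-1 and GF-D8 changes neither side, since both rank in the middle. No paired analysis was possible because each line is 1 array and the lines differ between the sides.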

Other observations

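The highest shares of called genes by chromosome were as follows. On chromosome X, 26 of 473 tested genes were higher in MECOM-high units (5.5%) and on chromosome 21, 8 of 169 (4.73%), against 1.96% of all tested genes. On chromosome 7, 20 of 692 were lower (2.89%) and on chromosome 14, 12 of 470 (2.55%), against 1.19%. On chromosome 3, which carries MECOM, 16 of 815 were higher (1.96%) and 5 lower (0.613%). On chromosome Y, 0 of 14 tested genes were called either way, but their median difference was -0.70, and -1.04 without erythroid and megakaryoblastic lines. These shares and medians have no test, and neither copy number nor the sex of the donors was analysed here.

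MHC class II genes had 10 of 11 positive differences, against 48.8% of all tested genes, with a median of 0.98 and no call. MOLM-16 was at the lowest of the high side for HLA-DRB1 (7.29) and HLA-DPB1 (4.41), and HLA-DRB1 reached 14.20 in F-36P. Without erythroid and megakaryoblastic lines the median was 0.25.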
